A study of Mus musculus with 2 samples.

Results

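Genes of protein folding in the endoplasmic reticulum (ER) and of the unfolded protein response were measured in MLL-AF9 leukaemia cells of the mouse. The module is a list of 35 gene symbols, chosen by name: ER chaperones, protein disulphide isomerases, prolyl isomerases, the translocon that brings proteins into the ER, the degradation pathway that removes misfolded ones, and the stress sensors. All 35 were present among the 27998 gene identifiers of both count tables, and all 35 had at least 50 UMIs (unique molecular identifiers, tags that mark single RNA molecules) over both libraries.

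The cells carried the MLL-AF9 fusion oncogene, which drives acute myeloid leukaemia, and the nuclease Cas9. They were grown in RPMI with 10% FBS, 1% P/S and 10 ng/ml mIL3 (mouse interleukin-3). The control library came from cells named after an sgRNA against Renilla, a luciferase sequence that the mouse genome lacks. The other library came from cells in which an sgRNA was aimed at the Jumonji domain of Jmjd1c, a member of the histone demethylase family. Each group was 1 library, so no difference below has a replicate check, and no test between the libraries was made. The labels do not say how long after the sgRNA the cells were taken, or whether a library was 1 clone.

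After filtering, the Renilla library held 608 cells (median 23528 UMIs) and the Jumonji library 575 cells (median 22123 UMIs), and the 2 shared no cell barcode. Jmjd1c itself stood at 140.4 CPM (the gene's UMIs scaled to the library's total, on the usual CPM scale) in the Renilla library and 112 CPM in the Jumonji library; a small Cas9 deletion need not lower a 3′ count, so this does not check the edit. Myeloid genes defined the cells: the primary granule genes Mpo, Elane, Prtn3 and Ctsg together had 4657 CPM in the Renilla library and 1664 CPM in the Jumonji library, a log2 ratio (Jumonji over Renilla) of -1.48. The Jumonji library had 7 of 8 monocyte genes and 7 of 9 neutrophil genes past 1.5-fold on the high side (all genes: 11%). Ccr2 and Camp were each more than 2-fold lower. Markers of B or plasma cells summed to 4 UMIs in each library.

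Proteins meant for secretion, for membranes or for granules enter the ER through the Sec61 channel, where chaperones such as BiP (encoded by Hspa5) bind them, disulphide isomerases form their sulphur bridges and calnexin and calreticulin check their sugars. When unfolded proteins build up, the sensors IRE1 (Ern1), ATF6 and PERK (Eif2ak3) signal to the nucleus and to the ribosome, and the factors XBP1 and ATF6 raise the transcription of chaperone and degradation genes. Promyelocytes make large amounts of granule proteases and myeloperoxidase in the ER, which is why the genes were set beside the granule genes here.

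The ER stress response element (ERSE), through which ATF6 and XBP1 are known to act, is CCAAT, then 9 bases of any kind, then CCACG. It was searched on both strands of RefSeq promoters (build GRCm38.p6), from 250 bases before to 50 after each annotated start. A promoter was matched for 29 of the 35 genes, and 8 of the 29 genes held an ERSE: Hspa5, Hsp90b1, Calr, Canx, Dnajc3, Pdia6, Creld2 and Syvn1. Of all 32851 promoters, 39 held it (0.119%). A related element, ERSE-II (ATTGG, 1 base, CCACG), stood in the promoters of Dnajb11 and Herpud1 and in 12 of all promoters (0.0365%). These are letter matches only and do not show that a factor binds. The promoters of the genes on which the results turn most are given 5′ to 3′ on the strand of the gene, with each ERSE or ERSE-II in capitals. Hspa5, Calr, Hsp90b1 and Pdia6 had the highest correlations with granule genes across the Renilla cells among the genes with an ERSE, Dnajb11 has the ERSE-II, and Ppib and Edem1, with neither element in the window, were among the 3 furthest above 0 between the libraries.
Hspa5 (chr2:34771840-34772139, plus strand): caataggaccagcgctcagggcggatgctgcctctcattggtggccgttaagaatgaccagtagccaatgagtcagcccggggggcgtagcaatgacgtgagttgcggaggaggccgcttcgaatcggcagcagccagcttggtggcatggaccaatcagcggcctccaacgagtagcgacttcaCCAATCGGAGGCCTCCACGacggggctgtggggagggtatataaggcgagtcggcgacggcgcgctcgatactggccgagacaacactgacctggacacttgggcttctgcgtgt
Hsp90b1 (chr10:86705395-86705694, minus strand): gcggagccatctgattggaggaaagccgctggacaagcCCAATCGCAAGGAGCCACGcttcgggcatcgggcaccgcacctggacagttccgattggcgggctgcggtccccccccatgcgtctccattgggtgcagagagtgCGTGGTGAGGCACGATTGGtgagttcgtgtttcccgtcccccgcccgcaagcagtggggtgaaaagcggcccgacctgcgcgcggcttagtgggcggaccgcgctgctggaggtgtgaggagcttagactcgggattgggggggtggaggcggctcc
Calr (chr8:84846882-84847181, minus strand): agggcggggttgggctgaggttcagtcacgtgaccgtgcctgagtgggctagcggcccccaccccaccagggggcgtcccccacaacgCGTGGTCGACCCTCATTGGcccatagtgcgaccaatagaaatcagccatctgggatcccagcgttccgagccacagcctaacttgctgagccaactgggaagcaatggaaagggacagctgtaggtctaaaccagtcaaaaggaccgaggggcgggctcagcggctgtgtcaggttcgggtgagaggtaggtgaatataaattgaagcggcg
Pdia6 (chr12:17266339-17266638, plus strand): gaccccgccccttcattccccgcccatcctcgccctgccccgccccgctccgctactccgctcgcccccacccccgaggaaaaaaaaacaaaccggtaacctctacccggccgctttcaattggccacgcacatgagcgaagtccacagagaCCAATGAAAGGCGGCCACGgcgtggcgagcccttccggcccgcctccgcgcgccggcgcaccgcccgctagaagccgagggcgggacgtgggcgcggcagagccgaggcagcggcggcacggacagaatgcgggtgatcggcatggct
Dnajb11 (chr16:22857595-22857894, plus strand): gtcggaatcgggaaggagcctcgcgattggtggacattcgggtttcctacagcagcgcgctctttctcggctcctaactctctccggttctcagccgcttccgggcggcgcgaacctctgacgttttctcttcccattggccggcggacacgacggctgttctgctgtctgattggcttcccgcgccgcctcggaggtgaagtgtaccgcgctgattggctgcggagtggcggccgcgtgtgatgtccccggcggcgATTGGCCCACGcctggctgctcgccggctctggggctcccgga
Ppib (chr9:66059919-66060218, plus strand): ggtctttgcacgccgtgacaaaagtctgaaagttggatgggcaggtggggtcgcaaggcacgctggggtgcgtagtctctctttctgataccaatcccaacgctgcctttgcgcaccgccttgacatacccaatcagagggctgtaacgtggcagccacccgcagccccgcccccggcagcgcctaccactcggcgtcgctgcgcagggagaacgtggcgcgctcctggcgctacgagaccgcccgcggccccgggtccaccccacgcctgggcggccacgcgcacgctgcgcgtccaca
Edem1 (chr6:108828391-108828690, plus strand): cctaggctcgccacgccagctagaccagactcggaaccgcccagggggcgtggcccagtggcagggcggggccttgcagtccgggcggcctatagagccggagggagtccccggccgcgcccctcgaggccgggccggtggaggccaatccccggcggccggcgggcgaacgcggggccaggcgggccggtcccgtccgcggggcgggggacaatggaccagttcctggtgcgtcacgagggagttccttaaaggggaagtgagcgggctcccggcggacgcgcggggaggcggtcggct
In Hspa5 the element ended 46 bases before the start. Hsp90b1 held 2, on opposite strands, ending 193 and 88 bases before it, and the Calr element lay 143 bases before the start, on the opposite strand. The Dnajb11 element lay after the annotated start. Of the 8 genes with an ERSE, 4 were above 0 and 4 below between the libraries, some by amounts within counting error. Of all genes, 56% were below 0. The median log2 ratio of the 8 was -0.00. In the 19 matched genes with neither element the median was 0.15.

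As a sum, the module was at nearly the same level in both libraries, at 7229 CPM in the Renilla library and 7567 CPM in the Jumonji library. The log2 ratio of the sum was 0.07 (0.05 to 0.08); the interval in brackets, here and below, is the exact 95% interval of a ratio of counts and covers counting error only. Over the same cells the granule genes differed by -1.48 on the log2 scale. The median over the 35 genes was 0.06 and that over all 9922 genes with at least 50 UMIs was -0.06. By size, 1 gene (Fkbp11) was at least 1.5-fold lower in the Jumonji library, where 9.04% of all genes were. On the high side, 3 genes (Edem1, Dnajb9 and Ppib) passed 1.5-fold, where 11% of all genes were. At 1.2-fold, 5 genes were on the low side and 8 on the high side, beside 29.4% and 23.8% of all genes. Neither share of the module was above that of all genes. In cells with at least 1000 genes and at most 5% mitochondrial UMIs the count of genes higher by 1.2-fold was 5, and the sum was 7219 against 7388 CPM.

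**Figure D1:**
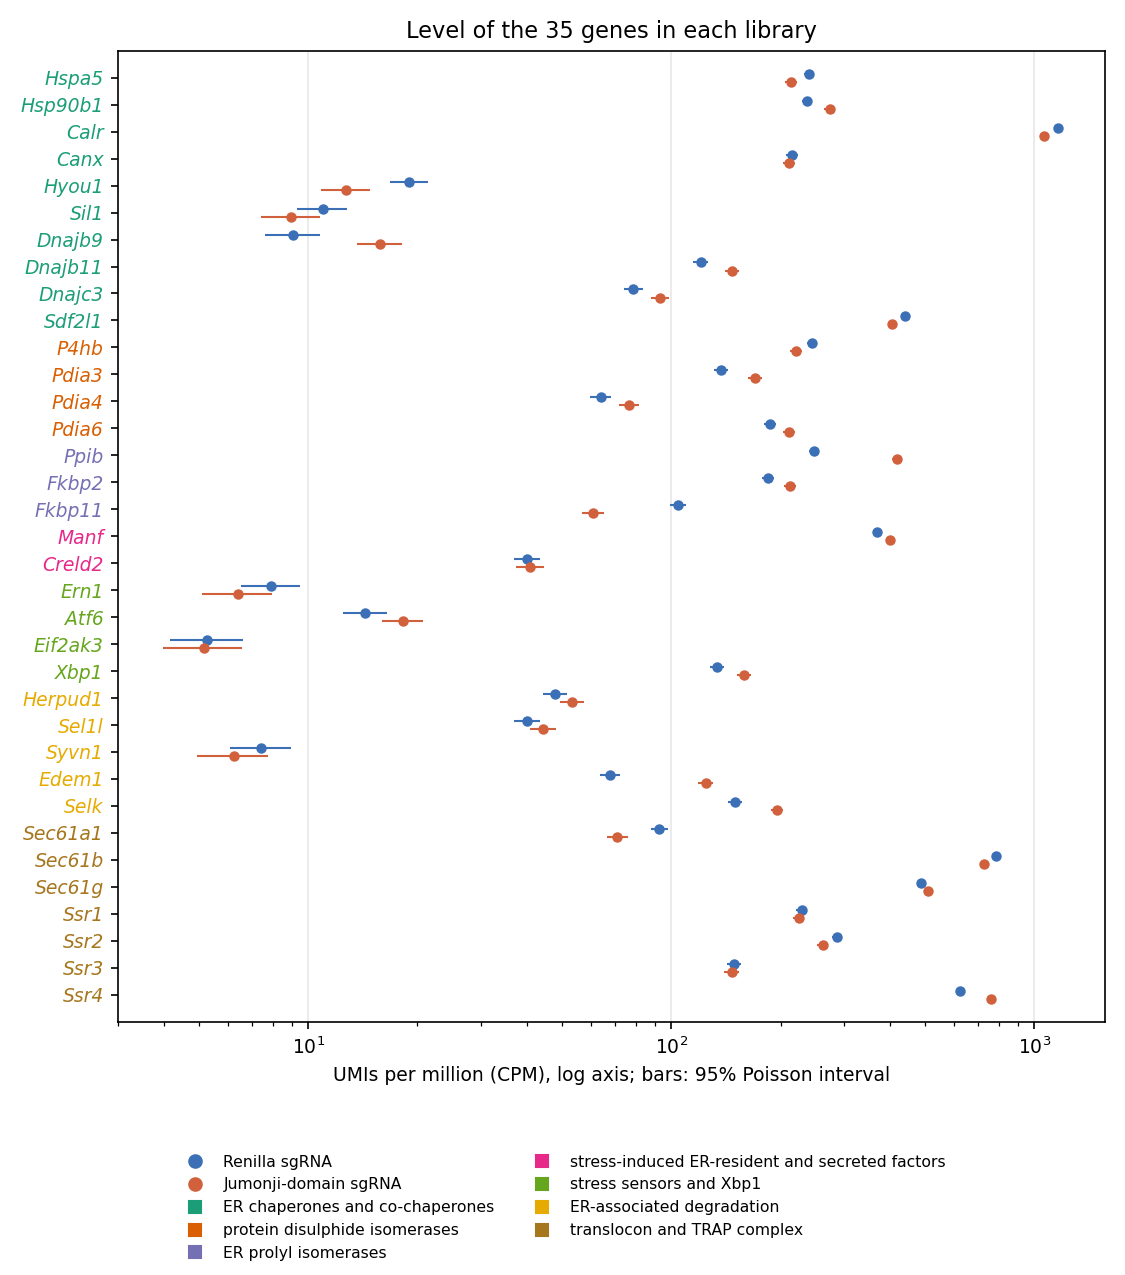
Level of each of the 35 genes as CPM on a log axis, with 95% Poisson intervals, in the Renilla library (blue) and the Jumonji library (orange); gene names are coloured by role. Most pairs of points lie close together, and Ppib, Edem1, Dnajb9 and Fkbp11 are the widest apart.

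The 3 stress sensors were measured at low counts. Ern1 encodes IRE1, the sensor that splices Xbp1 mRNA. It had 114 and 82 UMIs in the Renilla and Jumonji libraries, or 7.91 CPM (95% Poisson interval 6.52 to 9.50) in the Renilla library and 6.40 CPM (5.09 to 7.95) in the Jumonji library, a log2 ratio of -0.30 (-0.73 to 0.12). Atf6, the membrane-bound factor that is cut in the Golgi to free its active part, had 14.4 CPM (95% Poisson interval 12.5 to 16.5) in the Renilla library and 18.2 CPM (15.9 to 20.7) in the Jumonji library, a ratio of 0.34 (0.07 to 0.62). Eif2ak3 encodes PERK, the kinase that halts translation; it had 76 and 66 UMIs and a ratio of -0.03 (-0.53 to 0.46). The intervals of Ern1 and Eif2ak3 both held 0, so no difference was detectable at this depth, and only Atf6 had an interval above 0. Xbp1, the transcription factor at the end of the IRE1 branch, stood at 134 CPM (95% Poisson interval 128 to 140.0) in the Renilla library and 159 CPM (152 to 166) in the Jumonji library, a ratio of 0.25 (0.16 to 0.34). The 3′ counts do not separate spliced from unspliced Xbp1. Xbp1 was not higher throughout: across the joint clusters its ratio ran from -0.30 to 0.80 and was above 0 in 4 of 6. The -0.30 (-1.03 to 0.34) came from a cluster with 5 Jumonji cells, which held 20 Xbp1 UMIs. In the clusters with at least 30 cells of each library it was at 0.06, 0.17 and 0.56.

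The 10 chaperones and co-chaperones lay on both sides of 0. Hspa5 (chromosome 2, 34771970 to 34777547, plus strand, mm10), the Hsp70 of the ER and the usual marker of ER stress, stood at 239.5 CPM (95% Poisson interval 232 to 248) in the Renilla library and 214 CPM (206 to 222) in the Jumonji library, a log2 ratio of -0.16 (-0.24 to -0.09). Hsp90b1, the Hsp90 of the ER, went the other way, at 236 CPM (95% Poisson interval 229 to 245) in the Renilla library and 273 CPM (264 to 282) in the Jumonji library and 0.21 (0.14 to 0.28). Both differences were past counting error and under 1.2-fold. The lectin chaperones Calr and Canx had ratios of -0.13 (-0.16 to -0.10) and -0.03 (-0.10 to 0.05), with Calr at 1159 against 1060.2 CPM. Taken as a mean over the 3 clusters that held at least 30 cells of each library, Calr was at 0.04, so its small difference turned with the weight of the clusters.

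Hyou1 and Sil1 are nucleotide exchange factors of BiP. Hyou1, which is also a chaperone in its own right, stood at 19 CPM (95% Poisson interval 16.8 to 21.4) in the Renilla library and 12.7 CPM (10.8 to 14.8) in the Jumonji library, a ratio of -0.58 (-0.87 to -0.29). Sil1 had 158 and 115 UMIs and -0.29 (-0.65 to 0.07), an interval that held 0; in cells thinned to 10000 UMIs it was at 0.01. Of the J-domain partners of BiP, Dnajb9 (ERdj4) stood at 9.09 CPM (95% Poisson interval 7.60 to 10.8) in the Renilla library and 15.8 CPM (13.7 to 18.1) in the Jumonji library, a ratio of 0.80 (0.47 to 1.12). Dnajb11 had 120.5 against 147 CPM and 0.29 (0.19 to 0.38), and Dnajc3 had 78.6 against 92.9 CPM and 0.24 (0.12 to 0.36). All 3 J-domain genes had intervals above 0 over all cells, and Hspa5 one below 0. Across clusters Dnajc3 was below 0 in 2 of 6, and Hspa5 was above 0 in 3 of 6, from -0.35 to 0.47. Sdf2l1, a partner of Dnajb11, was at -0.11 (-0.17 to -0.06).

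Protein disulphide isomerases showed small ratios. P4hb, the founding member, was at -0.15 (-0.22 to -0.07). The other 3 were above 0: Pdia6 at 0.18 (0.10 to 0.25), Pdia4 at 0.26 (0.13 to 0.39), and Pdia3, which works with calnexin and calreticulin, at 0.31 (0.22 to 0.40), from 137 against 170.3 CPM. With cells of at most 5% mitochondrial UMIs, Pdia3 was at 0.23 and Pdia4 at 0.17.

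The prolyl isomerases lay far apart. Fkbp11 (chromosome 15, 98724366 to 98728198, minus strand), a peptidyl-prolyl isomerase of the ER known from secretory cells, stood at 105 CPM (95% Poisson interval 99.4 to 110.1) in the Renilla library and 61 CPM (56.8 to 65.4) in the Jumonji library. Its log2 ratio of -0.78 (-0.91 to -0.65) was the lowest of the module. Ppib (chromosome 9, 66060222 to 66066623, plus strand), which encodes cyclophilin B, stood at 247 CPM (95% Poisson interval 239 to 255) in the Renilla library and 417 CPM (406 to 429) in the Jumonji library, and its ratio was 0.76 (0.70 to 0.82). Ppib overlaps Snx22 on the opposite strand, and reads of the 2 may not be told apart. Fkbp2 lay between them at 0.20 (0.12 to 0.28). Fkbp11 was lower in 6 of 6 clusters, from -0.75 to -0.09, and Ppib higher in 6 of 6, from 0.36 to 0.92. Taken as a mean over the 3 clusters with at least 30 cells of each library, Fkbp11 was at -0.57, just short of 1.5-fold, and Ppib at 0.62.

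Of the 5 genes of ER-associated degradation, Edem1 and Selk had intervals above 0. Edem1 (chromosome 6, 108828641 to 108859356, plus strand), a lectin that marks misfolded glycoproteins for disposal, stood at 68 CPM (95% Poisson interval 63.8 to 72.4) in the Renilla library and 124 CPM (118 to 131) in the Jumonji library, a log2 ratio of 0.87 (0.76 to 0.99) and the highest of the module over all cells, with an interval that overlapped that of Dnajb9. As a mean over clusters Dnajb9 was at 1.09 and Edem1 at 0.70. The Dnajb9 mean took in a cluster at 1.93 (0.48 to 3.86), where the Renilla cells held only 4 UMIs of the gene. Edem1 was above 0 in 6 of 6 clusters, from 0.05 to 1.06. Selk, a selenoprotein of the ER membrane (now named Selenok), had 149.9 against 196 CPM and 0.38 (0.30 to 0.47). Herpud1, a membrane scaffold of the degradation complex and a familiar stress target, was at 0.15 (-0.00 to 0.31), an interval that held 0. Sel1l and Syvn1, the adaptor and the ubiquitin ligase (HRD1) of that complex, were at 0.15 (-0.02 to 0.31) and -0.25 (-0.69 to 0.18), both with intervals that held 0. The members of 1 ligase complex therefore did not follow Edem1.

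Manf and Creld2, ER-resident factors that stressed cells also release, were at 0.12 (0.07 to 0.18) and 0.02 (-0.15 to 0.20). The translocon and the TRAP complex beside it gave 7 genes. Sec61a1, the channel subunit, stood at 92.8 CPM (95% Poisson interval 87.9 to 97.9) in the Renilla library and 71 CPM (66.5 to 75.8) in the Jumonji library, a ratio of -0.39 (-0.51 to -0.26). The small subunits Sec61b and Sec61g were at -0.11 (-0.15 to -0.07) and 0.06 (0.01 to 0.11). Of the TRAP subunits, Ssr1, Ssr2 and Ssr3 were at -0.03, -0.13 and -0.02, and Ssr4 at 0.29 (0.25 to 0.33), from 623 against 761 CPM. Intervals were below 0 for Sec61a1, Sec61b and Ssr2 and above 0 for Ssr4 and Sec61g. In cells thinned to 10000 UMIs Sec61g was at -0.014. The median of the 7 was -0.03 and the ratio of their sum 0.03, of opposite sign.

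**Figure D2:**
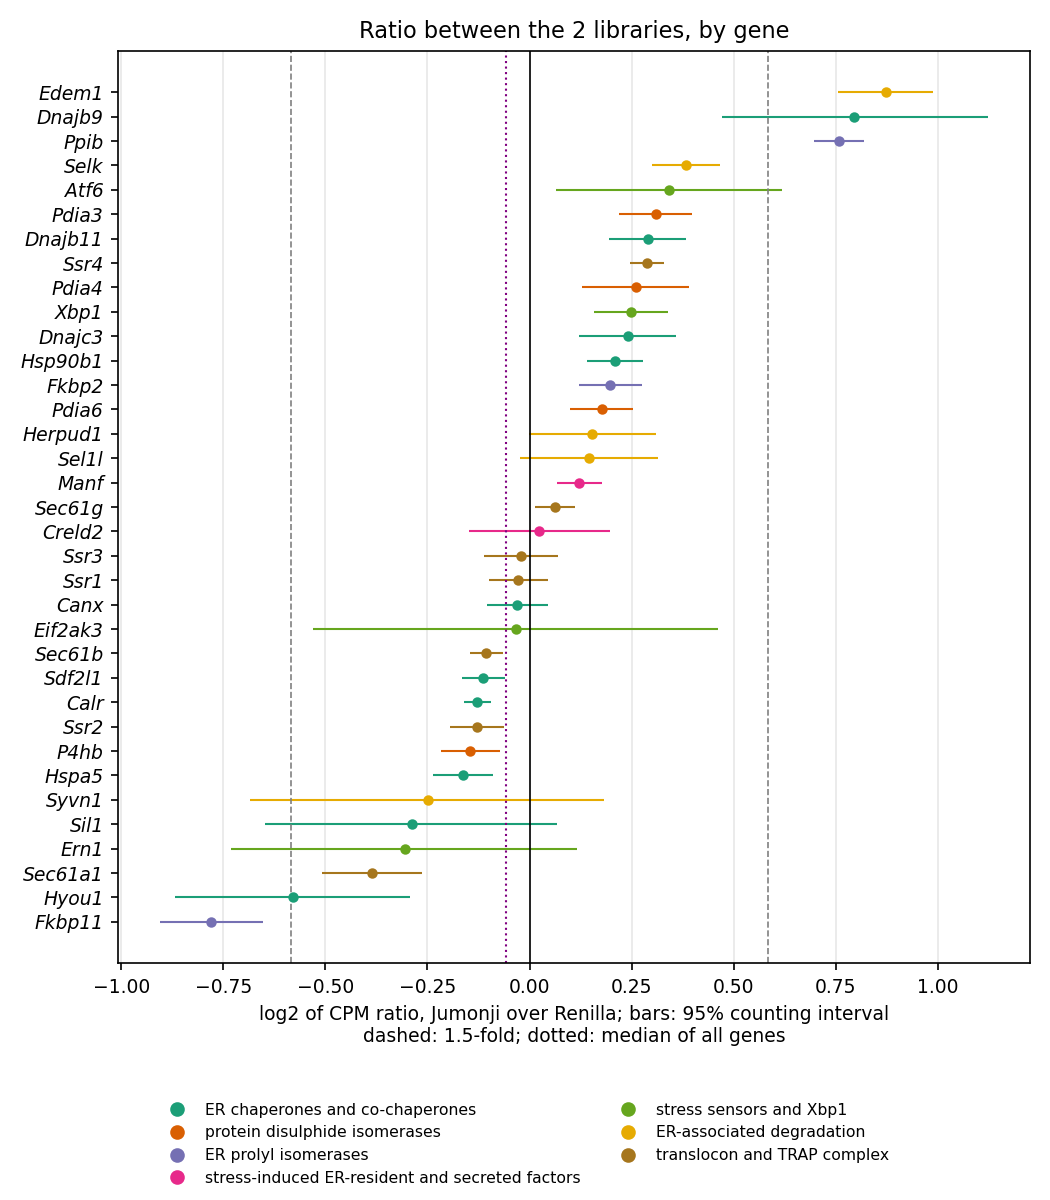
Log2 ratio of CPM, Jumonji over Renilla, for the 35 genes in order, with 95% counting intervals and colours by role; dashed lines mark 1.5-fold and the dotted line the median of all genes. Edem1, Dnajb9 and Ppib lie past the upper line and Fkbp11 past the lower, and chaperones lie on both sides of 0.

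Edem1, Ppib, Dnajb9 and Fkbp11 were thus apart by size. The first 3 were past 1.5-fold under each of the 11 other settings tried, with lowest ratios of 0.70, 0.62 and 0.59. Dnajb9 had UMIs of both libraries in 5 of 6 clusters and was above 0 in those 5. Pdia6 (0.03 to 0.76), Dnajb11 (0.01 to 0.46) and Ssr4 (0.05 to 0.25) were above 0 in 6 of 6 clusters. Some of these intervals held 0. In the cluster with 5 Jumonji cells Dnajb11 was at 0.006 (-0.74 to 0.67) and Ssr4 at 0.08 (-0.23 to 0.37). There Fkbp11 was at -0.43 (-1.39 to 0.39) and Ppib at 0.42 (-0.02 to 0.82). The lowest ratio of Pdia6 was 0.03 (-0.14 to 0.20). The share of all genes with the same sign in every cluster was not counted. Calr, Canx, Sil1, Creld2, Eif2ak3, Sel1l, Sec61g, Ssr1 and Ssr3 changed sign under at least 1 setting. The signs printed for them above therefore hold for the main setting only.

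Other genes of the secretory pathway lay on both sides of 0 as well. Of 68 genes of other oxidoreductases, signal recognition and signal peptidase, oligosaccharyltransferase, the calnexin cycle and other degradation steps, 32 were below 0 and 36 above, with a median of 0.05. Over all genes 56% were below 0 and the median was -0.06. Past 1.5-fold were 4 on the low side and 4 on the high side, a smaller share than the 9.04% and 11% of all genes. Among the oxidoreductases Pdia5 was at -0.88 (-1.36 to -0.41) and Ero1lb at 0.86 (0.12 to 1.63). Of the degradation genes, the lectin Os9 had 41.5 against 64.8 CPM, a ratio of 0.64 (0.49 to 0.80), and the ligase Rnf5 62.8 against 94.9 CPM, a ratio of 0.60 (0.47 to 0.72). Of the 18 degradation genes, 6 were below 0, beside 56% of all genes, and 12 were above. Mogs, the glucosidase that opens the calnexin cycle, had 32.9 against 16.5 CPM, and Uggt1, the enzyme that returns glycoproteins to it, was at 0.29 (0.10 to 0.48).

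Of 11 genes with at least 50 UMIs in the arm of the response that runs through PERK and ATF4, 9 had a log2 ratio below 0, beside 56% of all genes. By size, 5 were past 1.2-fold on the low side (29.4% of all genes) and 1 past 1.5-fold (9.04%). The median was -0.24. Ddit3, which encodes CHOP, had 7.91 against 4.61 CPM, a ratio of -0.78 (-1.26 to -0.31). Chac1, a glutathione-degrading enzyme, had 11 against 7.42 CPM and -0.56 (-0.95 to -0.19). Atf4, the factor itself, had 333 against 252 CPM and -0.40 (-0.47 to -0.34). Nupr1 was the exception past 1.5-fold, at 42 against 71 CPM and 0.76 (0.61 to 0.91). Among genes that process ATF6 or resemble it, Creb3 was at 0.54 and Atf6b at 0.43, with a median over 4 genes of 0.24. Heat shock genes of the cytosol and mitochondria, folding factors of other compartments, were below 0 in 10 of 11, beside 56% of all genes. Of these, 5 were past 1.2-fold (29.4% of all genes) and 3 past 1.5-fold (9.04%), with Hsph1 at -0.93, Hspe1 at -0.71 and Hspd1 at -0.63. None of these lists was tested against the module.

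The question of whether folding genes follow granule production was asked cell by cell. Each cell was thinned to 10000 UMIs, which kept 579 Renilla and 520 Jumonji cells and left out 29 and 55. In the Renilla cells the summed module had a median of 69 UMIs per thinned cell (5th to 95th percentile 47 to 102), and the 4 granule genes a median of 40 (10.9 to 101). In the Jumonji cells the medians were 73 (48 to 104.1) and 10 (1 to 47). Spearman's rho between the sums was 0.27 across the Renilla cells and -0.005 across the Jumonji cells. With a wider list of granule and promyelocyte genes it was 0.30 and 0.21, so the gap between the libraries depended on the list. In the Jumonji cells 1 gene of the wider list, Srgn, gave a mean of 16.3 of its 38.7 UMIs per thinned cell. The 4 granule genes together gave 15.6. Srgn had a rho of 0.33 with the module and -0.12 with the 4 granule genes there, and 0.23 and 0.24 in the Renilla cells. Its part in the value of 0.21 was not tested. Cells of a library share its preparation, so these are descriptions and carry no p-value.

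The relation depended on the granule gene. With Mpo, which encodes myeloperoxidase, rho was 0.39 in the Renilla and 0.16 in the Jumonji cells. With Ctsg (cathepsin G) it was 0.38 and 0.17. With Elane, the gene of neutrophil elastase, it was 0.12 and -0.05, and with Prtn3 (proteinase 3) 0.18 and -0.006. The values for Mpo and Ctsg were the higher ones in both libraries. Mitochondrial share had a rho of 0.21 with Mpo in the Renilla cells; with it removed by regression on ranks, the rho of module and Mpo was 0.39 there and 0.14 in the Jumonji cells. Without the cells of the cluster highest in the monocyte gene Ctss (26 Renilla and 168 Jumonji cells), the rho with all 4 granule genes was 0.25 and -0.03.

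Single genes showed small correlations. A mean of at least 0.1 UMI per thinned cell in both libraries was reached by 31 of the 35; Sil1, Ern1, Eif2ak3 and Syvn1 were too sparse. The median rho with the granule genes was 0.07 over these 31 in the Renilla cells and 0.01 in the Jumonji cells, beside 0.01 and 0.02 over 6372 genes. A rho of at least 0.1 was found for 8 of 31 in the Renilla cells (6.62% of all genes) and for 3 in the Jumonji cells (14.9%). A rho of -0.1 or less was found for 0 (3.56%) and 3 (7.25%). The background holds every gene above that mean, sparse ones included.

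Calr had the highest rho in the Renilla cells, 0.25, and 0.07 in the Jumonji cells. Hspa5 had 0.22 and 0.05, Hsp90b1 0.17 and 0.11, and Fkbp11 0.18 and 0.05. Pdia3, above Hsp90b1 and Fkbp11 in the Renilla cells at 0.19, was at -0.02 in the Jumonji cells. Sec61b was the fifth by the mean of both libraries, with 0.07 and 0.15. At the other end, Ssr4 had -0.04 and -0.26, Ppib -0.03 and -0.18, and Xbp1 0.03 and -0.18. Creld2 and Sec61g followed, with -0.06 and -0.02, and 0.00 and -0.03. The high end thus held 3 chaperones, and Ssr4, Ppib and Xbp1 were below -0.1 in the Jumonji cells with the summed granule genes. By single granule gene, Ssr4, Ppib and Xbp1 were there at -0.26, -0.16 and -0.16 with Elane and -0.22, -0.17 and -0.17 with Prtn3. With Mpo they were at -0.09, -0.003 and -0.06, and with Ctsg at -0.06, -0.03 and -0.09, none past -0.1. The difference between libraries was not tested.

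**Figure D3:**
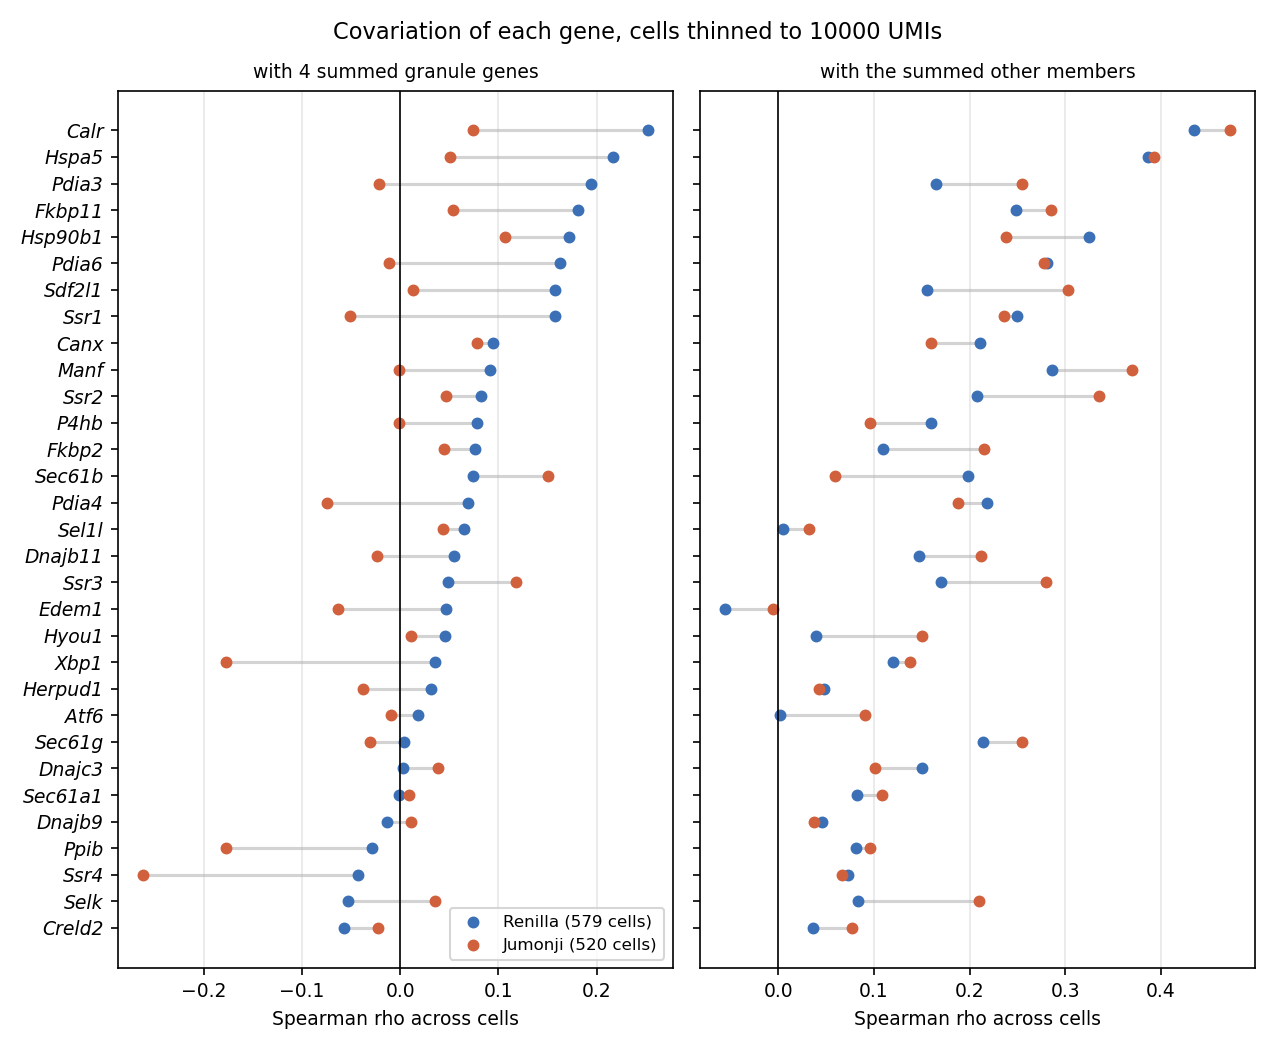
Spearman's rho across thinned cells for 31 genes, with the 4 summed granule genes (left) and with the sum of the other members of the module (right), in the Renilla (blue, 579 cells) and Jumonji (orange, 520 cells) libraries. Calr and Hspa5 lead on the left in the Renilla cells, Ssr4 lies lowest in the Jumonji cells, and on the right the pairs of points lie closer together.

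The cells were also split into 4 equal groups by granule share, and the granule-high group was set against the granule-low group. In the Renilla library the 152 cells of the granule-high group had 8091 CPM of the module and the 152 of the granule-low group 6597 CPM, a log2 ratio of 0.29 (0.27 to 0.32). Hspa5 was at 174 CPM in the granule-low and 322 CPM in the granule-high group (0.89), Fkbp11 at 76.7 CPM in the granule-low and 125 CPM in the granule-high group (0.70), and Pdia6 at 153 CPM in the granule-low and 242 CPM in the granule-high group (0.66). Pdia3, Hsp90b1 and Calr followed at 0.62, 0.57 and 0.48. Of 33 members with at least 50 UMIs in the 2 groups of cells, 16 were at least 1.2-fold higher in the granule-high group (23.3% of all genes) and 1 was lower (14.9%). The granule-low group held 18 cells of the Ctss-highest cluster and the granule-high group 2, and their part was not tested. Median depth was 23639.5 UMIs in the granule-high and 22107 in the granule-low group, and S phase genes were at 1089 CPM in the granule-low and 1337 CPM in the granule-high group.

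In the Jumonji library the same split (143 cells a group) gave 7418 CPM in the granule-high and 7697 CPM in the granule-low group, a log2 ratio of -0.05 (-0.08 to -0.03). Hspa5 and Fkbp11 were again higher with granule genes, at 0.23 (0.07 to 0.39) and 0.43 (0.10 to 0.76). Ppib, Xbp1 and Ssr4 were lower, at -0.53 (-0.64 to -0.41), -0.55 (-0.73 to -0.37) and -0.49 (-0.58 to -0.41); Ssr4 was at 913 CPM in the granule-low and 648 CPM in the granule-high group. Of 32 members, 2 were at least 1.2-fold higher (33.2% of all genes) and 6 lower (21.2%). The granule-low group of this library held 81 cells of the Ctss-highest cluster against 13 in the granule-high group, its median depth was 14789 against 26050 UMIs, and the 8 monocyte genes were at 2214 CPM in the granule-low and 666 CPM in the granule-high group. Their part in the result was not tested; without that cluster the rho of module and granule genes was -0.03. When the groups were taken by Mpo alone or by a wider granule list, the ratio of the module was 0.05 and 0.24, the other direction. Srgn gave 16.3 of the 38.7 UMIs of the wider list per thinned Jumonji cell, and its part was not tested.

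Cells with many monocyte or neutrophil UMIs differed in the module. In the Jumonji library 42 cells had at least 0.5% of their UMIs from the 8 monocyte genes, a threshold chosen after the values were seen, and no Renilla cell did. They had 7953 CPM of the module against 7553 CPM in the other 533 cells, Ppib at 631 against 409.9 CPM and Ssr4 at 1048 against 751 CPM. Their median depth was 10555.5 UMIs, against 22810 UMIs in the others. S phase genes were at 268 against 1218 CPM and primary granule genes at 291 against 1711 CPM in them, and the part of these was not tested. In 31 Jumonji cells with at least 1% from the neutrophil genes, the module was at 5674 CPM against 7640 CPM, Hspa5 at 137 against 217 CPM and Calr at 604 against 1078 CPM, while Hsp90b1 was at 286 against 273 CPM. Median depth was 13956 against 22468 UMIs, and its part was not tested. Only 4 Renilla cells passed that threshold. They had the module at 4327 CPM against 7242 CPM in the other Renilla cells, lower as in the Jumonji cells. Hspa5, with 2 UMIs, was at 31.7 against 240 CPM and Calr at 428 against 1162 CPM, also lower. Hsp90b1, with 3 UMIs, was at 47.6 CPM (9.81 to 139) against 237 CPM in the other Renilla cells. In the Jumonji library the Hsp90b1 intervals of the 2 groups of cells (240 to 339 and 264 to 282) overlapped. No direction is therefore read for Hsp90b1 in the Jumonji library.

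The members also varied with each other. Against the sum of the rest, 20 of 31 had a rho of at least 0.1 in the Renilla cells and 21 in the Jumonji cells, where 9.06% and 9.4% of all genes had one with the module. The medians were 0.16 and 0.19. Calr led with 0.43 and 0.47, followed by Hspa5 with 0.39 and 0.39. Manf had 0.29 and 0.37. Edem1, the gene with the highest ratio between the libraries over all cells, had -0.05 and -0.01 and so did not vary with the rest.

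Among the 300 pairs of the 25 best-counted members, the median rho was 0.05 in the Renilla and 0.07 in the Jumonji cells, and 8 and 19 pairs reached 0.2. Hspa5 with Calr had 0.34 and 0.29. Calr with Pdia6 had 0.24 and 0.28, Calr with Ssr1 0.24 and 0.24, and Calr with Fkbp11 0.21 and 0.27. Hspa5 with Hsp90b1, the pair of Hsp70 and Hsp90 of the ER, had 0.32 and 0.20. Calr has the most UMIs of the module, and its place at the head of these pairs is not read as a finding.

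**Figure D4:**
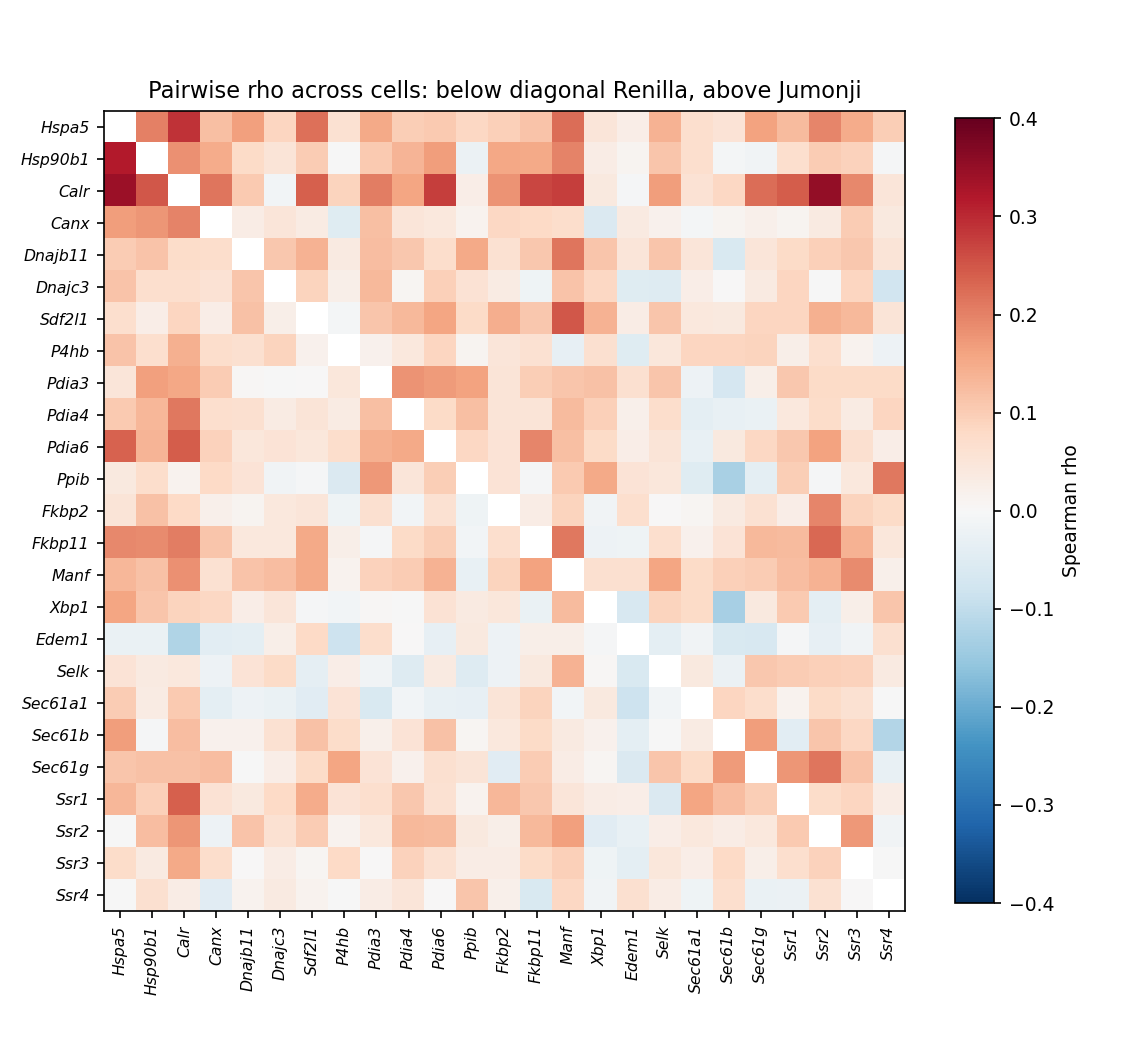
Spearman's rho across thinned cells for each pair of 25 members, Renilla cells below the diagonal and Jumonji cells above it, on a scale from -0.4 to 0.4. Calr and Hspa5 have the darkest red cells in both libraries, and the cells of Edem1 are pale or blue.

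Outside the module, the 10 genes that varied most with it in both libraries, of 2282 with a mean of at least 0.5 UMI, were Plac8, Eif4a1, Tmed9, Spcs2, Hspd1, Vimp, Mydgf, Srgn, Cct3 and Atp5b. Their smaller rho of the 2 libraries ran from 0.23 (Atp5b) to 0.29 (Plac8). Spcs2 is a signal peptidase subunit, Tmed9 a cargo receptor of early secretory transport, Vimp (Selenos) a degradation factor and Mydgf an ER-resident secreted factor. Of whole lists, the 12 oligosaccharyltransferase genes, which add sugars to chains entering the ER, had a rho with the module of 0.37 and 0.46. Genes of the PERK and ATF4 arm had 0.14 and 0.15. The lists differ in depth (24 and 8 UMIs per thinned Renilla cell), and the part of depth was not tested.

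Barcodes with more than 10% mitochondrial UMIs were kept out of everything above, and the module was far higher in them. In the 43 such Renilla barcodes it stood at 13821 CPM against 7229 CPM in kept cells, and in the 77 Jumonji barcodes at 23589 CPM against 7567 CPM. Hspa5 was at 239.5 CPM in kept cells and 1417 CPM in the barcodes left out of the Renilla library and at 214 CPM in kept cells and 1271 CPM in the barcodes left out of the Jumonji library, a log2 ratio of 2.56 and 2.57. Pdia6 had ratios of 2.33 and 2.24, and Calr 1.76 and 2.11. The ratios of the 2 libraries were close for Hspa5 and Pdia6, and further apart for Ssr4 (-0.16 and 1.71), Manf (0.13 and 1.64) and Sdf2l1 (0.11 and 1.59). The barcodes left out had a median depth of 5694 UMIs in the Renilla and 4804 UMIs in the Jumonji library.

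In the Jumonji barcodes 33 of the 35 passed 2-fold on the high side, beside 22.8% of all genes. Eif2ak3 and Syvn1, with 6 UMIs each, passed 2-fold with intervals that held 0. In the Renilla barcodes 15 passed 2-fold, beside 17.1% of all genes. Dnajb9 and Ern1, with 5 UMIs each, did so with intervals that held 0. Among the genes below 0 in the Renilla barcodes were Ssr3 at -0.28 (-0.84 to 0.23) and Ssr4 at -0.16 (-0.41 to 0.08). Sec61b and Sec61g alone had intervals below 0 in both libraries. Sec61b was at 783 CPM in kept cells and 317 CPM in the barcodes left out of the Renilla library and 728 CPM in kept cells and 263 CPM in the barcodes left out of the Jumonji library, and Sec61g had ratios of -0.68 and -0.96. Their partner Sec61a1 was higher, at 0.94 and 1.68. Per barcode, the module's share was above the median of kept cells in 26 of 43 Renilla and 77 of 77 Jumonji barcodes. Kept Jumonji cells with 5 to 10% mitochondrial UMIs (34 cells) had 13918 CPM, against 7438 CPM at 2.5 to 5%, and 7311 CPM below 2.5%. In Renilla cells the values were 7378 CPM (63 cells), 7083 CPM and, below 2.5% (34 cells), 8988 CPM, the highest of the kept Renilla cells. A high mitochondrial share and low depth are signs of damaged cells, and their part in the levels was not tested. The rho between module and mitochondrial share over thinned kept cells was 0.05 in the Renilla and 0.18 in the Jumonji library.

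**Figure D5:**
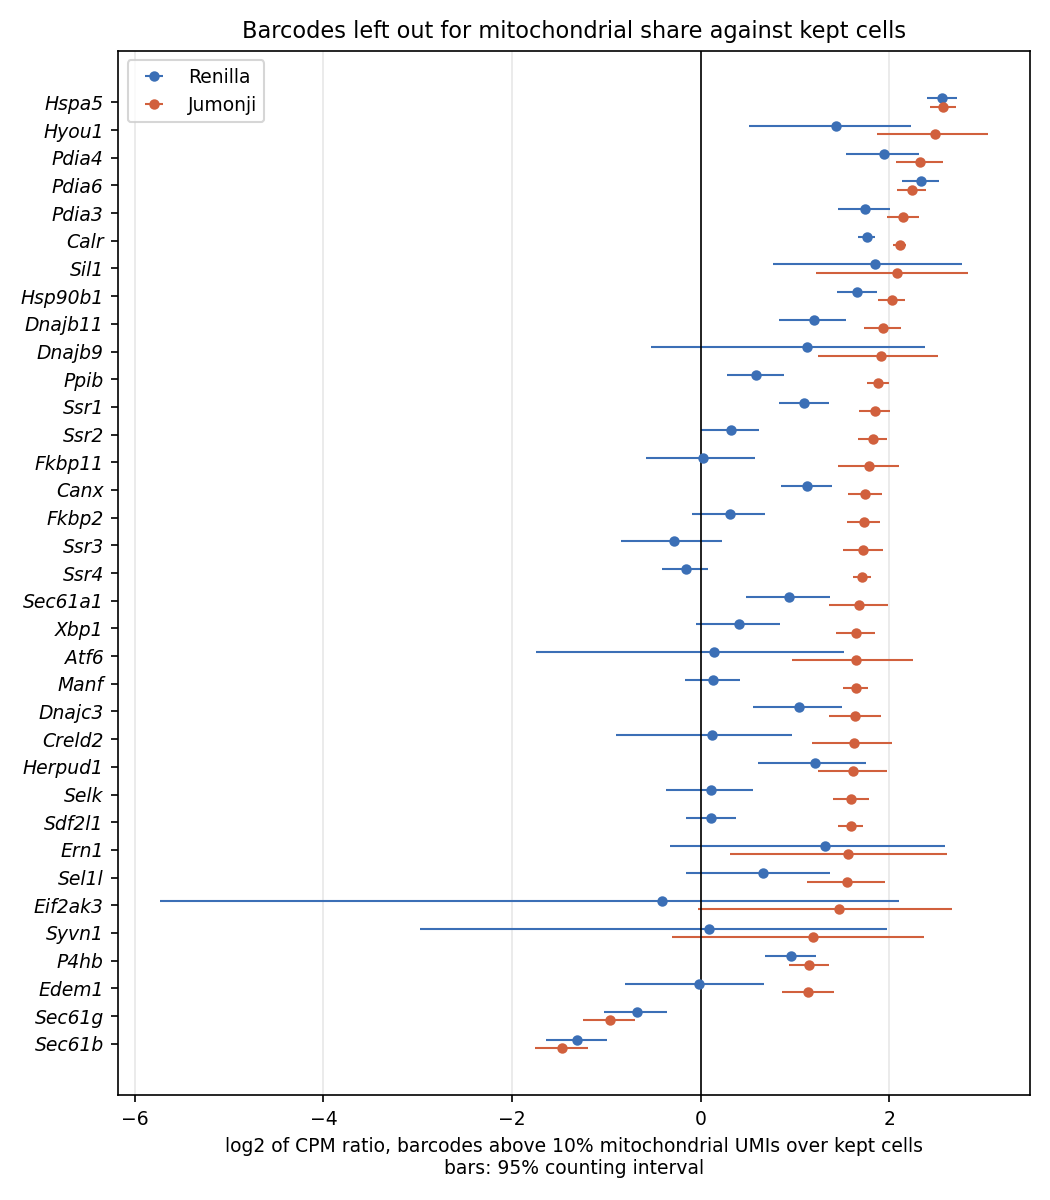
Log2 ratio of CPM in barcodes above 10% mitochondrial UMIs over kept cells, for each of the 35 genes, with 95% counting intervals (Renilla blue, 43 barcodes; Jumonji orange, 77 barcodes). Hspa5 and Pdia6 are high in both libraries, Sec61b and Sec61g are below 0 in both, and most other genes are higher in the Jumonji barcodes.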

How the data were processed

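The deposited values are raw counts of UMIs per gene and cell barcode, made with Cell Ranger 1.3.1 and build mm10 per the submitters' processing notes, from 10x Genomics 3′ version 2 libraries per the labels' protocols. Neither the annotation release nor the cell-calling rule is given in the sources used here. A barcode was kept if it had 500 genes or more and no more than 10% of its UMIs from mitochondria; 43 Renilla and 77 Jumonji barcodes were left out, all by mitochondrial share. The depth was 14418743 and 12809661 UMIs. Scrublet marked 10 and 4 cells as doublets, which were kept. UMIs were summed over cells and scaled to CPM. Ratios carry exact conditional binomial intervals and levels exact Poisson intervals, for counting error only. With 1 library per group no test was made. Both libraries were clustered in 1 run (scanpy 1.11.5, leidenalg 0.10.2), without the members, cell cycle, mitochondrial and ribosomal protein genes, and genes at least 1.5-fold apart (5447 left out). Counts over the 6 clusters weigh each cluster alike. The cluster with the fewest Jumonji cells held 5 of them and 150 Renilla cells. For covariation, cells were thinned to 10000 UMIs. Coordinates are from GENCODE M21 (1-based) and promoters from RefSeq. The ratio, interval, thinning and rank correlation were tested on simulated data.

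The members and lists were chosen with earlier results of these data known. Values are given in full for Hspa5, Hsp90b1, Xbp1, Ern1, Atf6, Eif2ak3 and the 6 lowest and 6 highest members, and for covariation for the 5 highest and 5 lowest. Alternatives changed the cell filter, doublets, scaling, count minimum, granule list, correlation measure and cell mixture. Reads were counted near the 3′ end, and whether the counting used strand is not given in the sources used here; 13 members overlap a gene on the opposite strand and 6 a gene on the same strand, among them Ppib (Snx22), Pdia6 (Atp6v1c2), Pdia3 (Catsper2) and Manf (Rbm15b, Dcaf1), so reads of these pairs may not be told apart.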

Additional observations from a re-analysis of the deposited data

Results flagged for a closer look

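Barcodes outside the comparison, those above 10% mitochondrial UMIs, carried more of the module in the Jumonji library (77 barcodes) than in the Renilla control library (43 barcodes). All members together stood at 23589 CPM against 13821 CPM. By role, chaperones and co-chaperones were at 9912 CPM against 7586 CPM, disulphide isomerases at 2624 CPM against 2122 CPM, and prolyl isomerases at 2454 CPM against 709 CPM. Manf and Creld2 were at 1377 CPM against 447 CPM, the sensors with Xbp1 at 588 CPM against 218 CPM, and degradation genes at 1174 CPM against 412 CPM. The translocon and TRAP genes were at 5460 CPM against 2328 CPM. As a log2 ratio, Jumonji over Renilla, all members were at 0.77 (0.72 to 0.83) in these barcodes. Not every gene shared the difference. Hspa5 was at -0.16 (-0.35 to 0.04), Pdia6 at 0.08 (-0.15 to 0.32) and P4hb at 0.05 (-0.28 to 0.38). Sec61b was at -0.27 (-0.70 to 0.17) and Sec61g at -0.23 (-0.66 to 0.21). The primary granule genes went the other way, at 2278 CPM in the Jumonji and 10072 CPM in the Renilla barcodes. No replicate library bears on the difference.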

How the results depend on the processing

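Depth limits Ern1, Eif2ak3, Syvn1 and Sil1, and 1 library per group limits everything. The median log2 ratio of the module (0.06) ran from 0.00 to 0.14 over 11 alternatives, and the 3 genes at least 1.5-fold higher became at most 4. The count at least 1.5-fold lower (1) was 2 in thinned cells, 2 with mitochondrial, ribosomal protein and granule genes out of the total and 0 as a mean over clusters. The 5 genes at least 1.2-fold lower became 3 with all barcodes and 3 when centred on the median gene, which gave 12 on the high side. The 8 at least 1.2-fold higher became 13 with all barcodes, 5 with at most 5% mitochondrial UMIs, 5 with the reduced total and 13 as the mean of each cell's CPM. Sil1 turned to 0.012 in thinned cells. The rho of module and granule genes was 0.39 (Mpo), 0.38 (Ctsg) and 0.16 (Elane and Prtn3) in Renilla cells, and 0.16 (Mpo), 0.17 (Ctsg) and 0.21 (wider list) in Jumonji cells. The log2 ratio of the module between granule-high and granule-low cells was 0.17 (split into 2 groups), 0.32 (wider list), 0.39 (Mpo) and 0.26 (thinned) in the Renilla library. In the Jumonji library it was -0.014 (thinned), and it turned to 0.24 with the wider list and to 0.049 with Mpo. The alternatives with Ctsg, with Elane and Prtn3 and with mitochondrial share removed were chosen after seeing the data. The cause was not tested. The reduced total shifted all log2 ratios by -0.06. Of 1188 values for single genes, 1049 stayed within their spread, 138 moved and 1 reversed. Not every change of sign was counted as reversed: the ratio of Canx changed sign under 4 settings and that of Creld2 under 3.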
